A study of Mus musculus with 16 samples.

Results

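The genes of the circadian clock considered here are Bhlhe40, Usp2, Per1, Per2, Per3, Cry1, Cry2, Dbp, Tef and Nfil3, taken by their symbols in the platform's annotation. They had 12 of the 20205 probes of the array, and 9 of these probes, with values on at least 3 arrays of every mouse, could be tested, among 15715 tested in all. Of the 10 genes, 9 had a probe of their own and 7 of those were tested. The series set 4 wild-type male mice, W1, W2, W3 and W4, against their brother W5, all of mixed C57BL/6 and 129Sv background and each by its right kidney. They were killed at 88 days after birth, give or take 2 days, between 8 and 10 in the morning, a window chosen to limit the effect of daily rhythm. Each of W1 to W4 was hybridised against W5 on 4 two-colour arrays, 2 with the mouse in channel 1 and 2 with it in channel 2, which gave 16 arrays. An array named W4.1 is array 1 of mouse W4.

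In the mammalian clock, CLOCK and BMAL1 bind E-box elements and switch on the Per and Cry genes, whose proteins then block CLOCK and BMAL1. Bhlhe40 (also called Dec1) encodes a repressor that binds E-boxes too. Dbp and Tef encode activators that bind D-box elements, and Nfil3 (also called E4BP4) encodes a repressor of the same elements. Usp2 encodes a deubiquitinating enzyme whose transcript cycles in many tissues and which acts on clock proteins. Clocks of this kind run in kidney tubule cells, where salt and water transport follows a daily rhythm.

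E-boxes were searched for in the promoters of these genes, since they are the elements through which CLOCK, BMAL1 and Bhlhe40 act. RefSeq promoter windows of build GRCm38.p6, 250 bases before to 50 bases after a start site, matched 8 of the 10 genes, with 10 windows. Bhlhe40 and Per2 had no window. The E-box CACGTG, which reads the same on both strands, lay in 4 of the 10 windows and in 7.15% of all 32851 windows of that length. These 4 windows are shown by the 250 bases before their start site, with the E-box in capitals, because they belong to 3 genes whose kidney values are compared below.
Tef, upstream start site, chr15:81802423-81802672, plus strand: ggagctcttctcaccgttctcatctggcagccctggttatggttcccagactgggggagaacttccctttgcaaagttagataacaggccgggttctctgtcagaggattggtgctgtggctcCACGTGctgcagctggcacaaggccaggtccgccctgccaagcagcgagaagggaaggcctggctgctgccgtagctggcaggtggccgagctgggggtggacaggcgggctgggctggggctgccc
Tef, downstream start site, chr15:81811164-81811413, plus strand: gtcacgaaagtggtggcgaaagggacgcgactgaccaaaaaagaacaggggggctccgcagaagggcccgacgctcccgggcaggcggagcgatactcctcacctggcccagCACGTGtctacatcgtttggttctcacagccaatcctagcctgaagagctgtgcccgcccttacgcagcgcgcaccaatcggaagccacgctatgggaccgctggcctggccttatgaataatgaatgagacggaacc
Per1, chr11:69098699-69098948, plus strand: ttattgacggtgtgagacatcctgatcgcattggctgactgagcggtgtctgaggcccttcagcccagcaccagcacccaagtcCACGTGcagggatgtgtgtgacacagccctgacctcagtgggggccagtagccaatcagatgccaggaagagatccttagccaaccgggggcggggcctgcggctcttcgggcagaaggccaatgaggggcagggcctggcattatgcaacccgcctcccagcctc
Cry1, chr10:85185055-85185304, minus strand: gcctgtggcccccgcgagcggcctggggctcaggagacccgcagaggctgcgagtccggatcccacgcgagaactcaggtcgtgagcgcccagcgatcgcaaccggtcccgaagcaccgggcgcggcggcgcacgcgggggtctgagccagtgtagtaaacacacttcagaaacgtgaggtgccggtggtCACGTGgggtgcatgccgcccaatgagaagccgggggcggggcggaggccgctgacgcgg
The E-box lay 127 and 138 bases before the 2 start sites of Tef, 166 bases before the upstream Per1 site and 60 bases before the Cry1 site. No E-box lay in the downstream Per1 window or in the windows of Usp2, Cry2, Dbp, Nfil3 and Per3. The D-box TTATGTAA, or TTACATAA on the other strand, lay in the Per3 window at 2 places and in 0.938% of all windows. The cyclic AMP element TGACGTCA, the same on both strands, lay in 0 of the 10 windows and in 1.79% of all windows. A match of letters is a description and not a measured binding site.

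All values are log2 ratios of a mouse to W5, with the sign turned on arrays that held W5 in channel 1. The sources used here do not say which channel is the numerator. Positive and negative therefore mark opposite sides of W5, and no kidney is called higher. Since all 4 arrays of a mouse used RNA of 1 kidney, the p-values measure technical spread, and the tests concern these 5 extracts and not mice at large. The test of W5 against the 4 mouse means is the exception, since its p-values measure the spread between those mice. Arrays had values for 80.2% to 91.1% of their probes, and for arrays the number of hybridisations limits the precision. The residual SD was 0.208 to 0.231 on the arrays of W4 and 0.153 to 0.211 on those of W1 to W3. Ratios give no level, so the expression of the kidney markers or of a clock gene could not be checked, and fewer cells of a type cannot be told apart from less RNA per cell.

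Among the 5 kidneys, Bhlhe40 and Usp2 differed and the other clock probes did not pass the test. Bhlhe40 spanned 0.60, which is 1.51-fold, between its outermost kidneys, W1 and W4. Usp2 spanned 0.31, or 1.24-fold, between W3 and W4. Tef spanned 0.60 on one probe and 0.46 on the other, with W2 and W4 outermost on both, and neither probe passed. The limma F test called 2 of the 9 clock probes at an adjusted p under 0.05, against 4.00% of all probes tested. The median span of the 9 clock probes was 0.42, and that of all 15715 probes was 0.24. That 0.42 is the span of the probe shared by Per2 and 9830107B12Rik. By 1 probe per gene, the median was 0.37 for the 7 clock genes tested and 0.23 for all 8005 named genes tested. The clock genes were chosen with earlier results of these data known, so these medians carry no test.

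**Figure D1:**
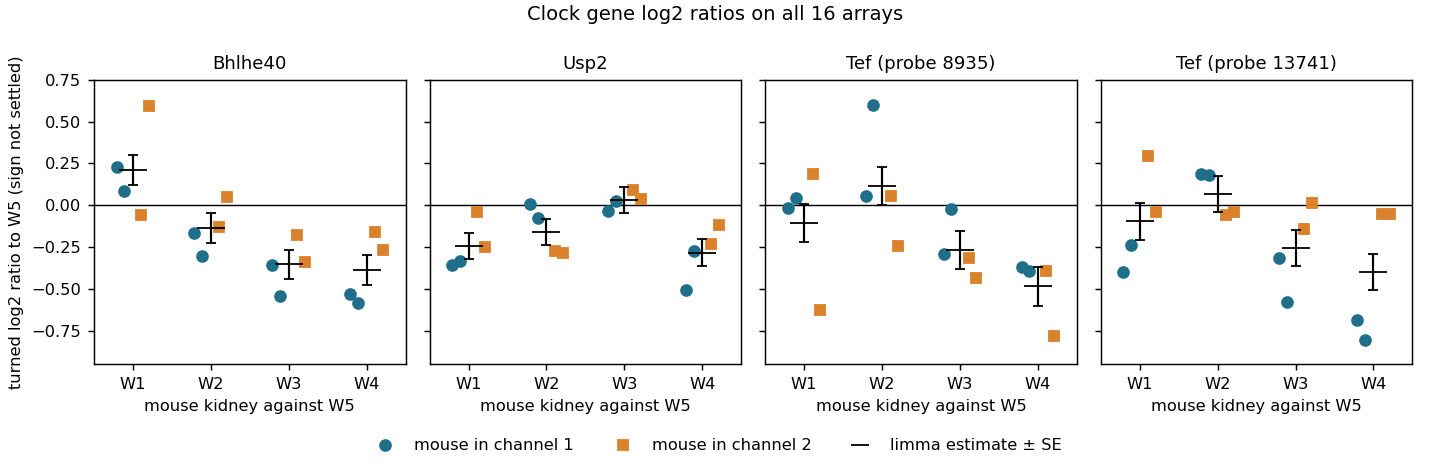
Turned log2 ratio to W5 (vertical axis) on each array, by mouse (horizontal axis), for Bhlhe40, Usp2 and the 2 Tef probes. Circles are arrays with the mouse in channel 1, squares those with it in channel 2, and bars the limma estimate with its SE; Bhlhe40 lies below 0 on all arrays of W3 and W4, and Usp2 on all arrays of W1 and W4.

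Bhlhe40, the E-box repressor, showed 0.23, -0.06, 0.09 and 0.59 on arrays 1 to 4 of W1. In W2 it showed -0.17, -0.13, -0.30 and 0.05. W3 gave -0.36, -0.18, -0.54 and -0.34, and W4 gave -0.53, -0.16, -0.59 and -0.27. W1 did not overlap with W3 or with W4, while W2 overlapped with all of them. On all 8 arrays of W3 and W4 the ratio lay on the same side of W5 after turning, so the deposited sign followed the channel of the mouse. The estimates were 0.21 for W1, -0.14 for W2, -0.35 for W3 and -0.39 for W4, each with an SE of 0.09 (n = 4 arrays per mouse). The limma F test over the 5 kidneys gave an adjusted p of 0.00879, which ranked 251 among 15715 probes.

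Taken in pairs, W4 and W5 differed in Bhlhe40 by -0.39 ± 0.09, or 1.31-fold, and limma called this pair (adjusted p = 0.0286). W3 and W5 differed by -0.35 ± 0.09 without passing (adjusted p = 0.0888). The widest pair was W1 minus W4 at 0.60 ± 0.13, which also missed the threshold (adjusted p = 0.0531). W1 minus W3 was 0.57 ± 0.13 (adjusted p = 0.120). W3 and W4 lay 0.03 ± 0.13 apart, with a 95% interval of -0.23 to 0.30. Among W1 to W4 alone, where W5 cancels, the F test of Bhlhe40 gave an adjusted p of 0.0679, and 0 of the 9 clock probes were called against 0.700% of all probes. At an unadjusted p under 0.05 there were 4 of the 9 in that test, beside 1751 of all 15715 probes.

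The 5-kidney call of Bhlhe40 held when any 1 of the 16 arrays was left out, with adjusted p between 0.000908 and 0.0242. It was lost without mouse W3 (adjusted p = 0.0677) or without mouse W4 (adjusted p = 0.0692). The pair call of W4 and W5 was less stable. It was lost when W4.1, W4.3 or W4.4 was left out, without mouse W2 or W3, with array weights, with arrays scaled to a common spread and without the dye term, with adjusted p over all alternatives between 0.00875 and 0.121.

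Usp2, the deubiquitinase, had its W3 estimate near 0, the value of W5, and its W1 and W4 estimates farthest from it. In W1 it showed -0.36, -0.04, -0.33 and -0.25, and in W2 0.01, -0.28, -0.08 and -0.29. W3 gave -0.03, 0.09, 0.03 and 0.04, the narrowest spread of the 4 mice for this gene. W4 gave -0.51, -0.23, -0.27 and -0.12. No array of W3 overlapped with those of W1 or W4, although W3.1 and W1.2 lay close together. The estimates were -0.25 for W1, -0.16 for W2, 0.03 for W3 and -0.28 for W4, each with an SE of 0.08. The F test over the 5 kidneys gave an adjusted p of 0.0472, just inside the threshold. No pair of kidneys was called for Usp2. W4 against W5 came nearest at -0.28 ± 0.08 (adjusted p = 0.0751), and W3 minus W4 was 0.31 ± 0.11 (adjusted p = 0.362). The 5-kidney call stayed when W1.2, W2.1 or W4.4 was left out and was lost when any of the other 13 arrays was, with adjusted p up to 0.116. It was also lost without mouse W1 (adjusted p = 0.179), W3 (adjusted p = 0.0800) or W4 (adjusted p = 0.170). The same held without the dye term (adjusted p = 0.0801) and with the replicate number as a block in its place (adjusted p = 0.0749). Arrays centred on their medians (adjusted p = 0.0528) and 1 array per orientation as the minimum (adjusted p = 0.0537) lost it too.

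Tef, the D-box activator, was measured by 2 probes with different accessions, which gave a repeat of the measurement within each array. Probe 8935 showed -0.02, 0.18, 0.04 and -0.63 in W1, and 0.06, 0.05, 0.60 and -0.24 in W2. It showed -0.29, -0.32, -0.02 and -0.44 in W3, and -0.37, -0.40, -0.39 and -0.78 in W4. All arrays of W3 and W4 lay below 0, and W4 overlapped with W3 and with W1 through W1.4. Probe 13741 showed -0.40, 0.29, -0.24 and -0.04 in W1, and 0.18, -0.06, 0.18 and -0.04 in W2. It showed -0.31, -0.14, -0.58 and 0.01 in W3, and -0.68, -0.05, -0.81 and -0.05 in W4. In W4 this probe lay far from 0 on both arrays with the mouse in channel 1 and near 0 on the other 2 arrays.

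The estimates of the Tef probes followed the same order of kidneys. They were -0.11 and -0.10 for W1, 0.12 and 0.07 for W2, -0.27 and -0.25 for W3 and -0.49 and -0.40 for W4 for probes 8935 and 13741, each with an SE of 0.11. Over the 16 arrays, after the dye effect was taken out, the 2 probes correlated at 0.66; they share the arrays, the labelled extracts and W5. The 5-kidney test gave an adjusted p of 0.0566 for probe 8935 and of 0.112 for probe 13741, so neither passed. Probe 8935 passed in 6 of 28 alternative settings and probe 13741 in 1. For probe 8935 the adjusted p of that test ran from 0.013 to 0.404 over these settings. Limma called W4 against W5 on probe 8935 at -0.49 ± 0.11 (adjusted p = 0.0327), and not on probe 13741 at -0.40 ± 0.11 (adjusted p = 0.0692). That call was lost when W4.1, W4.3 or W4.4 was left out (adjusted p up to 0.159), without mouse W3, and with array weights, a common spread of the arrays or no dye term. W4 was the mouse of both clock calls in the pairs, which were 2 among 90 clock tests over 10 pairs; W4 against W5 called 2.01% of all probes. The other pairs with W5 called 0.795% for W1, 2.34% for W2 and 0.592% for W3, and none of the 9 clock probes. The pairs among W1 to W4 called 0.185% (W1 and W2), 0.159% (W1 and W3), 0.235% (W1 and W4), 0.299% (W2 and W3), 0.274% (W2 and W4) and 0.280% (W3 and W4), again with none of the 9. P-values were adjusted within each pair and not over the 10 pairs.

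**Figure D2:**
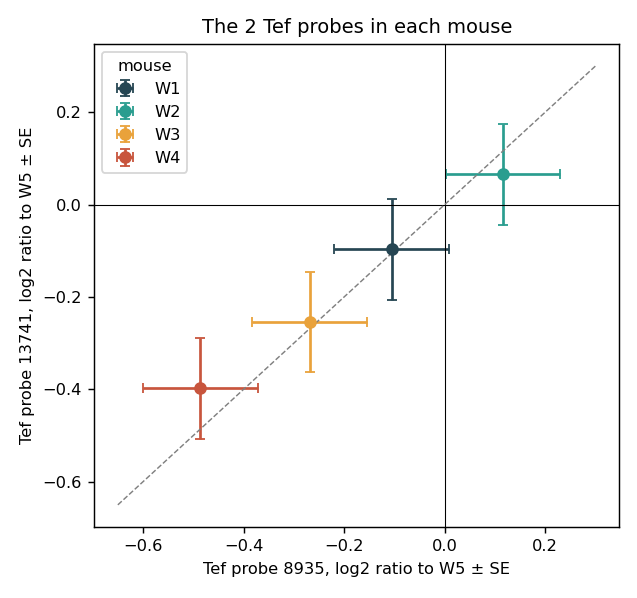
Limma log2 ratio to W5 of Tef probe 8935 (horizontal axis) and of Tef probe 13741 (vertical axis) in each mouse, with SE over 4 arrays; the dashed line marks equal values. The mice fall in the order W4, W3, W1, W2 on both probes.

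With the probes of each gene averaged before the fit, a setting chosen after the data were seen, Tef joined the called genes. Its estimates were then -0.10 for W1, 0.09 for W2, -0.26 for W3 and -0.44 for W4, each with an SE of 0.09. The adjusted p was 0.0230, where 4.95% of 8024 genes were called. In that fit Bhlhe40 had an adjusted p of 0.00506 and Usp2 of 0.0291, and Bhlhe40 was called among W1 to W4 as well (adjusted p = 0.0406).

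Per1, a period gene that outside signals can induce quickly, lay on the negative side in all 4 mice. Its estimates were -0.30 for W1, -0.05 for W2, -0.29 for W3 and -0.16 for W4, each with an SE of 0.13. Single arrays ran from -0.66 to 0.07 in W1, from -0.25 to 0.21 in W2, from -0.76 to 0.20 in W3 and from -0.33 to 0.05 in W4, so all mice overlapped. The 5-kidney test gave an adjusted p of 0.276. The mean of the 4 mice against W5 was -0.20 ± 0.12 (SD over n = 4 mice), the widest of the clock probes, with an adjusted p of 0.193. That test called 0 of the 9 clock probes and 0.286% of all probes, with 3 of the 9 and 2111 of all 15715 at an unadjusted p under 0.05, and it leaves out the spread of W5 itself.

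Per2 had no probe of its own, since both of its probes are listed with 9830107B12Rik as well, and no value is given to Per2 alone. The shared probe that was tested ran from -1.29 to 0.02 in W2 and from -0.27 to 0.31 on the arrays of the other mice. Its adjusted p was 0.464, and without W2.1 its span was 0.11 in place of 0.42. The other shared probe had values on 7 arrays and was not tested. Per3 had values on 2 arrays, 0.09 on W2.3 and 0.32 on W4.1, and was not tested.

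Of the cryptochromes, which close the feedback loop together with the PER proteins, Cry1 had its outermost estimates in W1 and W2 and did not pass. W1 gave 0.51, -0.07, 0.42 and 0.34, and the other mice ran from -0.40 to 0.29, so W1.2 lay within their range. The estimates were 0.30 for W1, -0.18 for W2, 0.05 for W3 and -0.09 for W4, each with an SE of 0.11, and the adjusted p was 0.282. Cry2 spanned 0.15, a percentile of 17.1 among all probes tested, with an adjusted p of 0.794. Its span was 0.07 without W1.2 or without W1.3, 0.26 without W1.4 and 0.23 without W3.4. All 4 of its 95% intervals against W5 lay between -0.22 and 0.37, which is the range of differences from W5 these arrays allow for Cry2. In pairs among W1 to W4 its intervals reached 0.46 for W1 minus W3 and -0.38 for W3 minus W4.

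Nfil3, the repressor at D-boxes, lay opposite to Tef in W3 and W4. It gave 0.31, 0.17, 0.26 and 0.18 in W3, all above 0, and 0.41, 0.36, 0.05 and -0.17 in W4. The estimates were -0.14 for W1, 0.02 for W2, 0.23 for W3 and 0.16 for W4, each with an SE of 0.10, and the adjusted p was 0.326. Over the 16 arrays Nfil3 correlated at -0.27 and -0.38 with the Tef probes. Dbp, the other D-box activator of the set, had values on 13 arrays and did not reach 3 arrays in W1. It ran from -0.21 to 0.11 on 2 arrays of W1, from -0.22 to 0.37 in W2, from 0.02 to 0.24 in W3 and from -0.45 to 0.25 in W4. With 2 arrays per mouse allowed, a setting chosen after the data were seen, its span was 0.32 (adjusted p = 0.672).

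**Figure D3:**
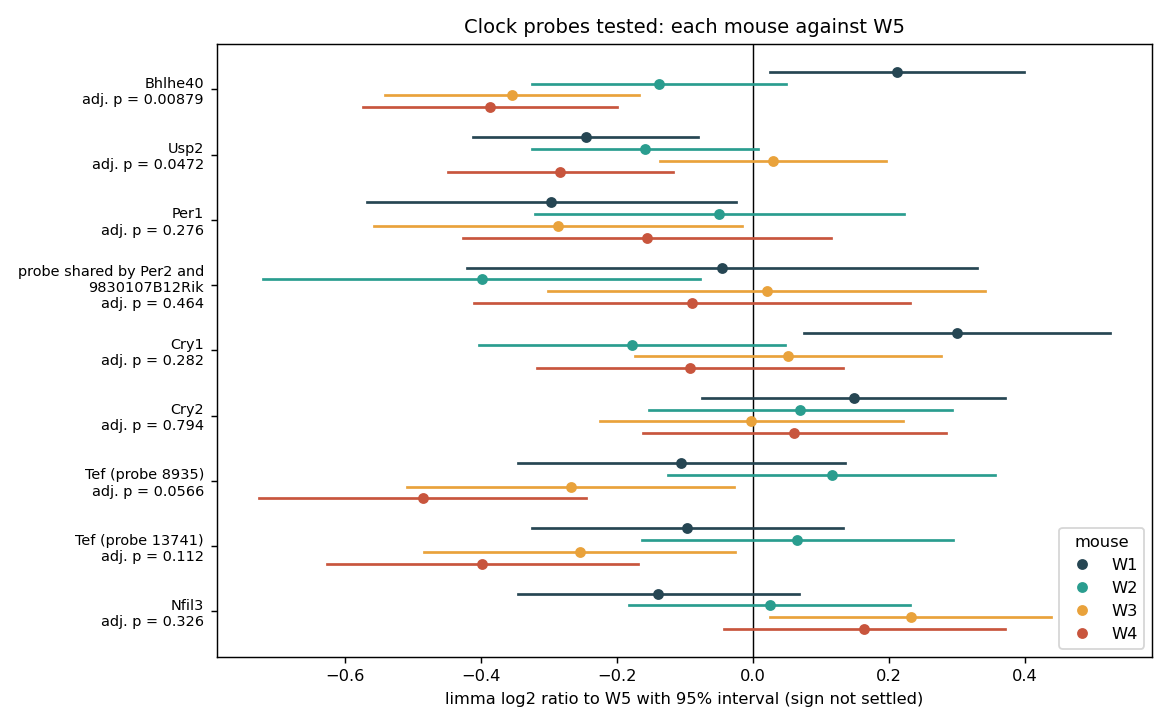
Limma log2 ratio to W5 (horizontal axis) with its 95% interval for each mouse at the 9 clock probes tested, with the adjusted p of the 5-kidney test. The Bhlhe40 interval of W1 lies apart from those of W3 and W4, and the 4 intervals of Cry2 all include 0.

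The clock probes correlated with each other in both directions. Over the 16 arrays, 15 of their 36 pairwise correlations were above 0, with a median of -0.06, and they ran from -0.63 to 0.66. The highest joined the 2 probes of Tef. The lowest joined Tef probe 13741 and the probe shared by Per2 and 9830107B12Rik, which had W2.1 far from its other arrays. The arrays share W5, which alone can move probes together. Since the set holds both activators and repressors, the signs alone cannot decide whether the clock varied as a whole, and that was not tested. Cry1 and Bhlhe40, both with W1 outermost, correlated at 0.50, and Nfil3 and Cry2 at -0.59.

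None of the 8 other clock genes that could be tested was called by limma, while 3 had an unadjusted p under 0.05. Of all 8005 named genes tested, 336 were called and 1460 had an unadjusted p under 0.05. These lists, like the members, were drawn up with earlier results of these data known. Nr1d1, the REV-ERB alpha repressor of Bmal1, was -0.36 for W1, 0.12 for W2, -0.41 for W3 and -0.07 for W4 (adjusted p = 0.165). Its relative Nr1d2 was -0.15, 0.16, -0.11 and -0.13 in W1 to W4 (adjusted p = 0.311). It correlated at 0.62 and 0.59 with the Tef probes. Hlf, the third D-box activator, was 0.12 for W1, 0.05 for W2, -0.25 for W3 and -0.04 for W4 (adjusted p = 0.221), and it correlated at 0.65 with Bhlhe40 and at -0.63 with Nfil3. Nono, a partner of the PER proteins, was 0.18, 0.30, -0.30 and 0.13 (adjusted p = 0.157). Rora, an activator of Bmal1, spanned 0.29, and the kinase gene Gsk3b also 0.29. The ubiquitin ligase genes Btrc and Fbxw11 spanned 0.19 and 0.09. The adjusted p-values of these 4 genes lay between 0.378 and 0.974, and the other Btrc probe spanned 0.41 (adjusted p = 0.254). The other Gsk3b probe spanned 0.10 (adjusted p = 0.830). It lay at 0.10 in W2 and 0.04 in W3, where the first Gsk3b probe lay at -0.17 and -0.12.

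Of 18 genes listed as rhythmic or as clock targets in kidney or liver, 8 could be tested. By 1 probe per gene limma called 3 of these, beside 336 of all 8005 named genes tested. Aqp2, the water channel of the collecting duct, was -0.36 for W1, 0.05 for W2, -0.13 for W3 and -0.54 for W4 (adjusted p = 0.00880). Alas1, the first enzyme of haem synthesis, lay at -0.41, -0.26, -0.14 and -0.43 (adjusted p = 0.00368). Cdkn1a, a cell cycle inhibitor, lay at -0.53, -0.45, 0.04 and -0.26 (adjusted p = 0.00150). The other 5 were not called and spanned 0.02 to 0.47. Among them Ppara spanned 0.30 (adjusted p = 0.423), and its other probe spanned 0.36 and just missed the threshold (adjusted p = 0.0519).

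**Figure D4:**
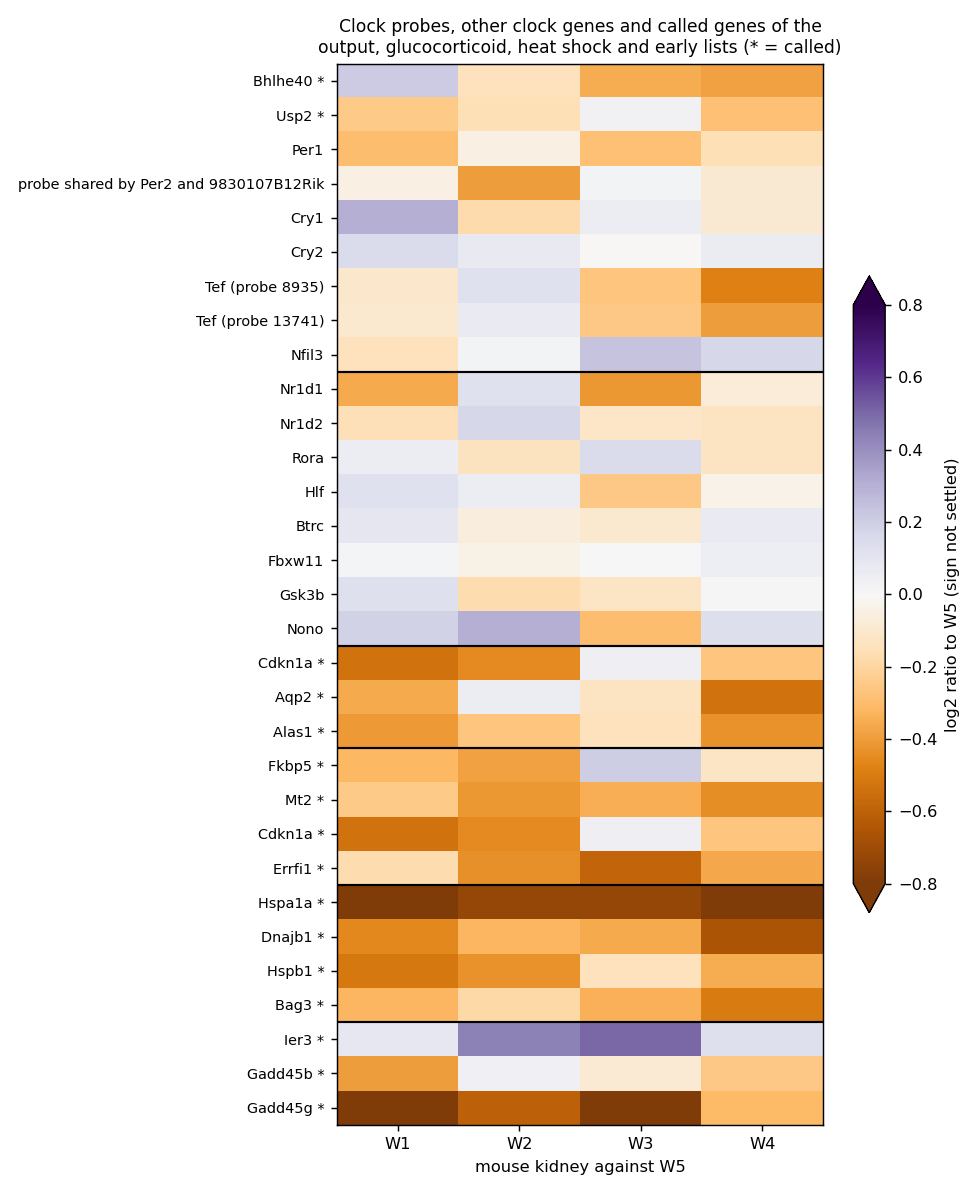
Limma log2 ratio to W5 by mouse (columns) for the clock probes, the other clock genes tested and the called genes of the output, glucocorticoid, heat shock and immediate early lists (rows, in blocks from top to bottom). Asterisks mark genes called in the 5-kidney test, and colours are capped at 0.8. The clock probes lie on both sides of W5.

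Glucocorticoid and temperature signals can both act on clock genes, and genes that answer to them varied among these kidneys. The lists were chosen with earlier results of these data known, and 336 of all 8005 named genes tested were called. Of 8 glucocorticoid responsive genes, 4 were called, namely Fkbp5, Mt2, Errfi1 and, again, Cdkn1a. Fkbp5, a chaperone partner that glucocorticoids induce, was -0.31 for W1, -0.39 for W2, 0.21 for W3 and -0.12 for W4. The metallothionein gene Mt2 was -0.25, -0.41, -0.35 and -0.44 in W1 to W4, and Errfi1, an inhibitor of growth factor receptor signalling, was -0.17, -0.43, -0.58 and -0.36. Of 7 temperature and heat shock genes, 4 were called, namely the chaperone and co-chaperone genes Hspa1a, Dnajb1, Hspb1 and Bag3. Hspa1a was -1.08, -0.73, -0.73 and -1.38 in W1 to W4, and the other 3 lay between -0.66 and -0.14. Per1, itself a glucocorticoid target, was not called. Of 8 immediate early genes, 3 were called, namely Gadd45g, Ier3 and Gadd45b, while the other Gadd45b probe was not. The part of these groups in the clock values was not tested.

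Among the genes called over the 5 kidneys, those most like Bhlhe40 over the 16 arrays were Ccdc141, Trim25, Ptprd, Tmem37 and Snhg16, with correlations of 0.83, 0.82, 0.81, 0.80 and 0.77. Cish and Pttg1 were the most opposite, at -0.76 for both. For Usp2 the most alike were Slc38a3, an amino acid transporter, at 0.90 and Hspa1a at 0.79, followed by Lgals3, Haus1 and Lgals1 at 0.75, 0.71 and 0.70. Id3 and Tril were the most opposite, at -0.86 and -0.82. Each was picked from 335 called genes on arrays that share W5, so these correlations describe the ranking and carry no test.

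Markers of other cell types also differed among these kidneys. They too were listed with earlier results of these data known, and the share called over all named genes tested was 336 of 8005. All 3 adipocyte markers tested of the 6 listed were called: Fabp4 was -0.47, -0.67, -0.64 and -0.31 in W1 to W4, Cidec -0.37, -0.36, -0.68 and -0.85, and Car3 -0.08, -0.34, -0.35 and -0.53. The other Car3 probe was called too, at -0.38, -0.62, -0.63 and -0.87. All 3 endothelial markers tested of 6 were called, with Esm1 at 0.14, 0.54, 0.04 and 0.74, Emcn at 0.03, 0.51, 0.04 and 0.59, and Egfl7 at 0.06, 0.45, -0.09 and 0.26. Both collecting duct markers tested of 6 were called, Aqp2 as above and Slc26a4 at 0.15, 0.38, 0.28 and 0.07. Aqp1 was called among 3 proximal tubule markers and Podxl among 2 of the glomerulus. None was called among 2 markers of the loop and distal tubule, 4 of leukocytes, 3 of the adrenal cortex and 2 of red blood cells, by 1 probe per gene; the other Lyz2 probe was called. The part of cell composition in the Bhlhe40, Usp2 and Tef values was not tested.

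The channel of the mouse moved none of the 9 clock probes past the threshold, while the dye term was called at 12.5% of all probes. At an unadjusted p under 0.05 there were 3 of the 9 and 4605 of all 15715 probes. The largest dye terms were -0.16 on Tef probe 13741 (adjusted p = 0.0601) and 0.14 on Tef probe 8935 (adjusted p = 0.122), on opposite sides. For Bhlhe40 the term was -0.11 (adjusted p = 0.123).

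**Figure D5:**
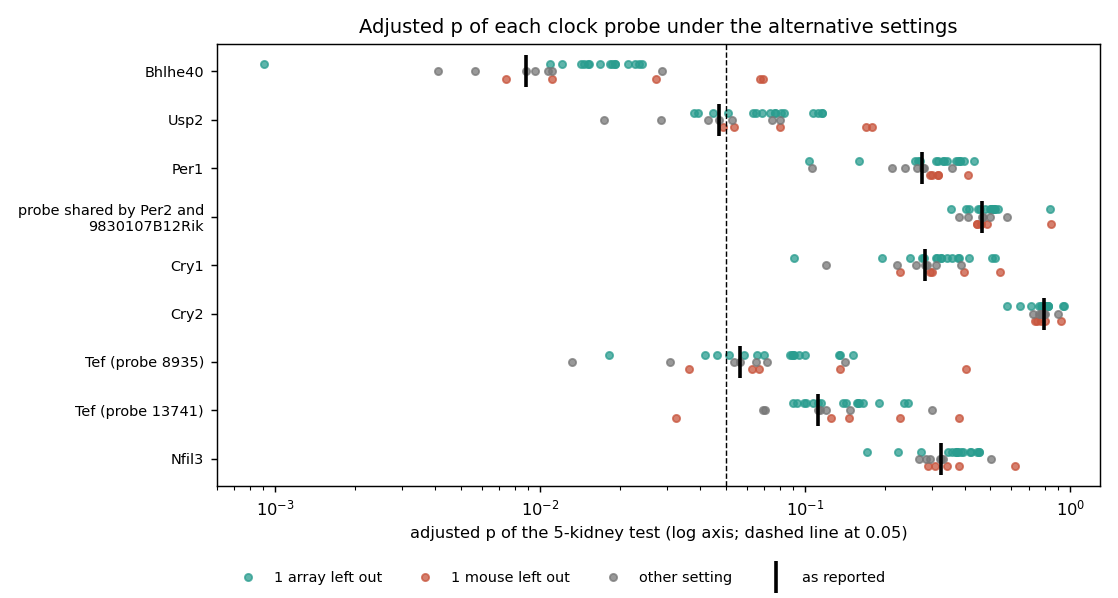
Adjusted p of the 5-kidney test (horizontal log axis) for each clock probe as reported (bar), with 1 array left out, with 1 mouse left out and under the other settings (points); the dashed line marks 0.05. Bhlhe40 crosses the line in 2 of 28 settings, both with a mouse left out, while the points of Usp2 and of Tef probe 8935 lie on both sides.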

How the data were processed

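Two-colour arrays measured total RNA of right kidneys. Per the labels, the authors scanned slides with a GenePix 4000A, read them with GenePix Pro 3.0, subtracted background from mean intensities and scaled the median ratio to 1. The deposited values are log2 ratios; no label names the base, but between 1.48% and 4.91% of an array's values, less its most frequent value, fell on logs to base 2 of quotients of integers no larger than 12 (tolerance 2e-06), against at most 0.128% under other bases. The filter behind empty cells, the dye of each channel and the numerator are not given in the sources.

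The sign was turned where channel 1 held W5. Across probes, with each probe centred over the mice within an orientation, a mouse's unturned arrays of opposite orientation correlated at -0.175 to -0.0852. Probes with values on at least 3 of 4 arrays of every mouse were tested. Limma 3.58.1 (R 4.3.3) fitted 4 mouse coefficients and a dye term per probe (lmFit, eBayes), with F tests over the 5 kidneys and among W1 to W4, and two-sided moderated tests of 10 pairs and of the dye. W5 was tested against the 4 mouse means. Adjusted p-values are Benjamini-Hochberg values over the 15715 probes within each question, with calls under 0.05. SE and 95% intervals come from the fit, which was tested on simulated data. A span is the distance between the outermost kidneys, with W5 at 0.

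Probes were named from the platform's annotation, 11723 with 1 symbol, 806 with several and 7676 unnamed here; none is named from a probe with several. A list gene is represented by its probe with values on most arrays, ties going to the lowest identifier. The named genes are all members, all clock genes tested, called genes of the other lists, the markers described, and for each called member the 5 most and 2 least correlated called genes. Members and lists were chosen with earlier results of these data known. Replicate numbers follow the channel orientation, and the labels do not say that they mark a shared batch. Alternatives were the settings named in the closing section.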

Additional observations from a re-analysis of the deposited data

Results flagged for a closer look

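Of 38 groups of 4 arrays of a mouse at the clock probes, 2 held an array far from the other 3, where chance alone gives about 1 such group in 20. Tef probe 8935 lay at -0.785 on W4.4, against -0.396 to -0.371 on the other arrays of W4. Without W4.4 the Tef difference of W4 and W5 was -0.43 and its adjusted p was 0.159. The probe shared by Per2 and 9830107B12Rik lay at -1.295 on W2.1, against -0.180 to 0.018 on the other arrays of W2, and its span without that array was 0.111.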

How the results depend on the processing

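The 5-kidney calls numbered 629 probes, of which 2 were clock probes (Bhlhe40 and Usp2). Without the dye term they numbered 403 and 1, calls among W1 to W4 were 62 in place of 110, and calls over the pairs were 706 in place of 1127, with 0 in place of 2 at clock probes. With array weights the count among W1 to W4 was 243, 1 of them a clock probe, and 4 clock calls came over the pairs. With a common median absolute deviation there were 0 clock calls over the pairs and 69 in the W5 test, in place of 45. Centring each array on its median, or testing probes with 1 array per orientation or with 2 arrays per mouse, left 1 clock probe called. With values on all 16 arrays, 3 clock probes were called over the 5 kidneys, with Tef probe 8935 (adjusted p = 0.0310) beside Bhlhe40 and Usp2. In that setting 1 clock probe was called among W1 to W4, 4 clock calls came over the pairs, and 126 probes in the W5 test. Without mouse W1 the counts were 378 over the remaining kidneys, 54 among the mice, 545 over the pairs, 658 for the dye and 27 for W5. Without mouse W2 they were 335 over the kidneys, 53 among the mice, 720 for the dye and 16 for W5. Without mouse W3 there were 49 among the mice, 734 for the dye and 0 clock calls of either kind, and without mouse W4 70 among the mice, 943 for the dye and 0 clock probes over the remaining kidneys. Leaving out 1 array gave 457 to 671 probes over the 5 kidneys, 72 to 125 among W1 to W4, 872 to 1315 over the pairs and 1267 to 1915 for the dye, from 1959. The clock probes called were then 1 to 3 over the 5 kidneys and 0 to 1 among W1 to W4, with 0 to 5 over the pairs. The cause was not tested, apart from fewer arrays or other probes in the fit. Robust eBayes, not run for the W5 test, kept the other counts within 1.5 times. With the replicate number as a block, 590 probes were called over the 5 kidneys, 2 of them clock probes, namely Bhlhe40 and Tef probe 8935 (adjusted p = 0.0131), not Usp2. Same-numbered arrays of different mice correlated at 0.0863 to 0.335 in their deviations, 21 of 24 above 0.1, and 10 of 16 arrays correlated best with their own number. Such arrays share their orientation too. Their median was 0.1635, against 0.1119 for arrays of another number in the same orientation. With the dye effect removed the medians were -0.0662 and -0.132. Whether the numbers mark a shared batch was not tested. The differences of W4 and W5 called at Bhlhe40 and Tef probe 8935 lay between -0.43 and -0.35 and between -0.57 and -0.43 over the 27 alternatives. Most of these alternatives leave the W4 values as they are, so the estimate could hardly move and its kept sign is no test.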
